A study of Gallus gallus with 2 samples.

Results

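The HES and HEY genes encode basic helix-loop-helix (bHLH) repressors. When a Notch receptor is bound by its ligand, gamma-secretase cuts the receptor and releases its intracellular domain, which joins the DNA-binding protein RBPJ and switches on *Hes* and *Hey* genes. In the embryonic neural tube their products repress proneural genes, whose own products push progenitors towards neuronal differentiation and raise the level of Notch ligands. *Hes6* is the family member that stands apart: in the mouse its product opposes HES1 and favours differentiation.

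Chick forebrain tissue was compared after 16 hours of roller culture in medium with DMSO, the solvent, or with 40 µM DAPT, a gamma-secretase inhibitor. Embryos entered culture at stage HH10 of the Hamburger and Hamilton series and were dissected at about HH13. The rostral head domain was taken, which holds the anterior forebrain, the optic vesicles and the tissue over them, and each RNA sample pooled the tissue of 5 embryos from the same culture. Each condition had 4 single-dye Agilent arrays, and both used embryos from Isa Brown hen eggs. DAPT also blocks the cleavage of gamma-secretase substrates other than Notch receptors, and only 1 dose and 1 time were sampled.

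Members were chosen by gene symbol in the array annotation. Of 9 symbols (*Hes1*, *Hes4*, *Hes5*, *Hes6*, *Hey1*, *Hey2*, *Helt*, LOC419390 and LOC419391), 6 had probes, 12 in all, out of 19047 genes or accessions and 31504 probes tested. All 12 passed the filter, which asked for a signal well above background throughout at least 1 condition (4 of its 4 arrays). *Hes4*, *Hey2* and *Helt* had no probe under these names. The probe annotated *Hes1* carries gene ID 395128, which the current RefSeq table (assembly GRCg7b) names HES4 with HES1 as an older name, so *Hes1* and *Hes4* are here a single probe, called *Hes1* as in the annotation. LOC419390 is described in the annotation as similar to enhancer of split related protein-7, and LOC419391 as similar to hairy and enhancer of split 5. In the RefSeq table the gene model of LOC419390 spans that of *Hes5* (gene ID 419392), and LOC419391 was not found. 2 further probes carry the RefSeq accession of *Hey1* (gene ID 428365) without its symbol, and they are given beside the *Hey1* probes.

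A value below is the log2 of the background-corrected signal minus the median of its array, so 0 is the median probe. Values of different probes are not levels that can be set against each other. Spots well above background made up 67.8% to 80.8% of an array. Arrays 1 and 2 of each condition lay on slide 1 and arrays 3 and 4 on slide 2, and no spot of a member was saturated or marked as an outlier. Of 10 forebrain and eye field markers 9 were measured, with summed linear signals of 161 to 247 times the array median with DMSO and 145 to 233 with DAPT, and none passed the test, although *Shh*, at a log2 fold change of -1.27, did with slide (adjusted p = 0.0312) or array number (adjusted p = 0.0123) as a block. The hindbrain genes *Hoxb1* and *Hoxa2* were not well above background on any array. The summed signals of 4 blood markers spanned 3.64 to 312 with DMSO and 5.55 to 288 with DAPT, and the part of blood RNA in the values below was not tested. Nor did any marker of mesenchyme and neural crest, endothelium, blood, surface ectoderm or somite pass the test between conditions, and their summed signals overlapped.

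With DAPT, 4 of the 6 members fell and none rose, against 7 of all 19047 genes or accessions that fell (0.0368%) and 19 that rose (0.0998%; limma, two-sided, Benjamini-Hochberg adjusted p under 0.05 over all 31504 probes). Those that fell were *Hes5*, LOC419390, LOC419391 and *Hey1*. They were also the 4 members whose DAPT arrays all lay below all DMSO arrays, as was so for 184 of the 19047 (0.966%). By probe, 12 of 31504 fell (0.0381%), and 9 of these 12 read a member or *Hey1* by accession. With the array number as a block 70 probes fell (0.222%), and with slide as a block 38 (0.121%), and the same 4 members were called. In bulk tissue, fewer cells that express a gene and less of its RNA per cell cannot be told apart.

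**Figure D1:**
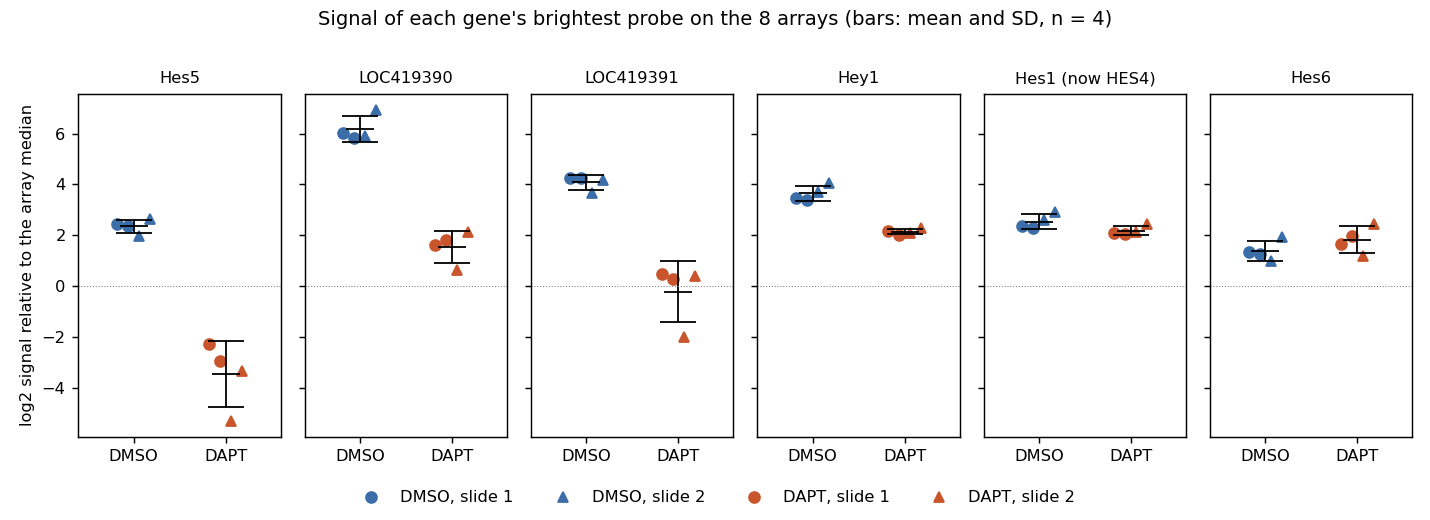
Log2 signal relative to the array median (vertical axis) for the brightest probe of each gene on the 4 DMSO arrays (blue) and the 4 DAPT arrays (orange). Circles mark slide 1, triangles slide 2, and bars the mean and SD (n = 4). The conditions are apart for *Hes5*, LOC419390, LOC419391 and *Hey1*, and overlap for *Hes1* and *Hes6*.

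*Hes5*, a target that the Notch intracellular domain switches on directly, had the lowest log2 fold change of all 31504 probes. That rank changed under another background correction, normexp, which was run with an offset added to every signal. Its single probe read 2.43, 2.36, 1.98 and 2.62 on the DMSO arrays (1 to 4 in order) and, in the same order, -2.28, -2.97, -5.32 and -3.36 with DAPT. All DAPT values lay far below all DMSO values, with a gap of 4.27 between the nearest arrays, and DAPT array 3 was the lowest. The means were 2.35 ± 0.26 and -3.48 ± 1.30 (DMSO, then DAPT; SD, n = 4 each), for a log2 fold change of -5.83 (95% confidence interval -7.02 to -4.64, limma adjusted p = 0.00356), which leaves 1.76% of the DMSO signal (interval 0.773% to 4.01%). The exact two-sided permutation test over the 70 splits of the 8 arrays gave p = 0.0286, the smallest it can give with 4 arrays against 4.

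The size of the *Hes5* change rested on signals near the lower end of the arrays. Before scaling, the probe read 1104, 1054, 1399 and 1211 intensity units with DMSO, falling to 50.4, 23.0, 5.08 and 17.3 with DAPT. The 95th percentile of the negative control spots was 7.84, 12.6, 5.77 and 4.53 on DAPT arrays 1 to 4. Signal with DAPT thus stayed above that level on 3 of the 4 arrays and was below it on DAPT array 3. Only DAPT array 1 was well above background by the criterion of the image-analysis software. With a floor under dim signals, set at the lowest signal of the array that was well above background, the log2 fold change was -5.12 (adjusted p = 0.000117), and without DAPT array 3 it was -5.22 (adjusted p = 0.000308). Background correction by normexp, a setting chosen after seeing the data, gave -2.75 (adjusted p = 0.000347), with the median of all probes at -0.32 in place of -0.01. This setting adds an offset of 50 intensity units to every signal, which is about as large as the highest *Hes5* signal with DAPT. With that offset LOC419390 was at -4.79 and LOC419391 at -3.54, so that *Hes5* fell the least of these 3 genes. The order under a smaller offset was not tested.

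LOC419390, whose gene model spans *Hes5*, fell at all 3 of its probes, and it was bright enough to be measured with DAPT. Its brightest probe read 6.03, 5.82, 5.92 and 6.94 on the DMSO arrays (1 to 4 in order) and, in the same order, 1.61, 1.79, 0.64 and 2.13 with DAPT. The highest DAPT array was 3.70 below the lowest DMSO array. The means were 6.18 ± 0.52 and 1.54 ± 0.64 (SD, n = 4 each), so that the log2 fold change was -4.63 (0.35 SE, limma adjusted p = 0.00112), or 24.8-fold lower, with 4.03% of the DMSO signal left (interval 2.35% to 6.90%). In intensity units the probe went from 13391, 11649, 21387 and 24279 with DMSO to 749, 624, 316 and 774 with DAPT, and no array fell short of well above background.

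The other LOC419390 probes gave like values. The next probe in brightness gave a log2 fold change of -4.89 (limma adjusted p = 0.000200), its values running from 3.37 to 4.53 with DMSO and from -1.44 to -0.59 with DAPT. The dimmest gave -4.76 (limma adjusted p = 0.000200), and was well above background on 3 of the 4 DAPT arrays. These 2 had the lowest adjusted p of all member probes.

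LOC419391, the other gene annotated as *Hes5*-like, fell at both of its probes. The brighter read 4.24, 4.24, 3.66 and 4.16 on the DMSO arrays (1 to 4 in order) and, in the same order, 0.46, 0.28, -2.02 and 0.37 with DAPT. Arrays 1, 2 and 4 agreed closely within each condition, whereas array 3 was the lowest with DMSO and also with DAPT. The means were 4.08 ± 0.28 and -0.23 ± 1.20 (SD, n = 4 each), so that the log2 fold change was -4.30 (0.50 SE, limma adjusted p = 0.0136), or 19.7-fold lower, with 5.07% of the DMSO signal left (interval 2.36% to 10.9%). The dimmer probe gave -4.11 (adjusted p = 0.00905), and both were well above background on all 8 arrays. The adjusted p of the brighter probe was 0.0608 without DMSO array 1 and 0.0574 without DMSO array 4. Without DAPT array 3 its log2 fold change was -3.70 (adjusted p = 0.000308).

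**Figure D2:**
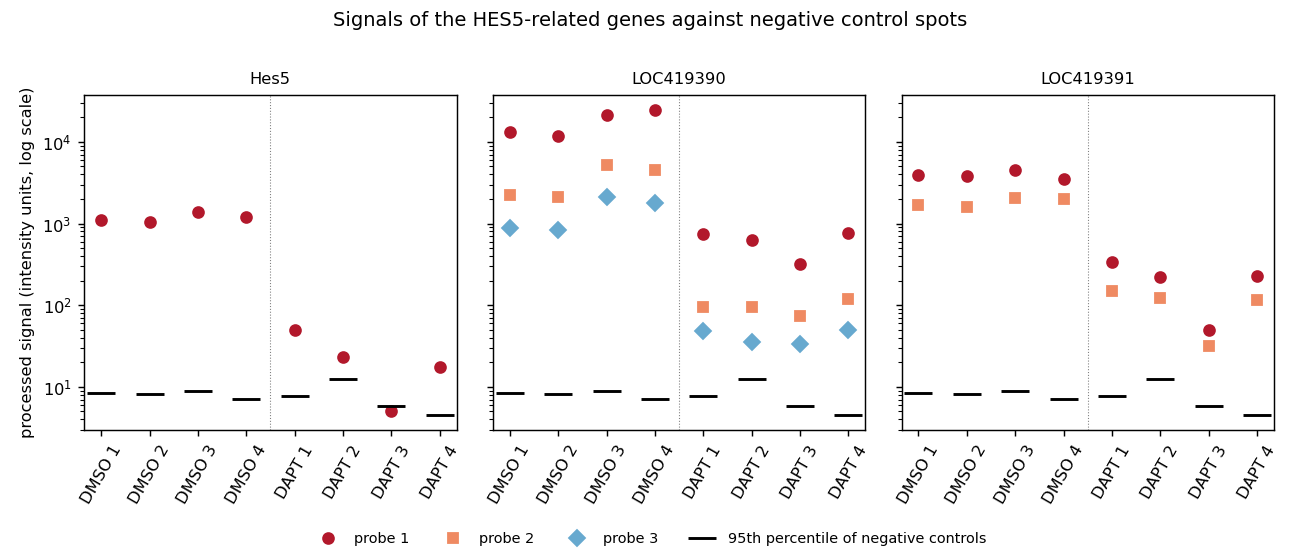
Processed signal in intensity units before scaling between arrays (log axis) for the probes of *Hes5*, LOC419390 and LOC419391 on each of the 8 arrays. Symbols mark the probes of a gene and black dashes the 95th percentile of the negative control spots on that array. *Hes5* reaches the level of the dashes on DAPT array 3 alone, and no probe of the other genes comes down to it.

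The 6 probes of *Hes5*, LOC419390 and LOC419391 held the 6 lowest log2 fold changes of all 31504 probes, at -5.83 to -4.11. The next lowest value outside the members was -2.91, which did not pass the test. DAPT array 3 was the lowest of the DAPT arrays at all 6 probes, and DMSO array 4 the highest of the DMSO arrays at 5 of them. Neither was particular to these genes. DAPT array 3 was also the lowest at the 3 *Hes6* probes, but not at the *Hes1* probe or any *Hey1* probe. At the *Hey1* probes found by accession it was the highest of the DAPT arrays. DMSO array 4 was the highest at 13 of the 14 HES and HEY probes. The probe sequences are not in the tables used here. How far a probe of 1 of these related or overlapping genes also reads RNA of another was not tested.

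**Figure D3:**
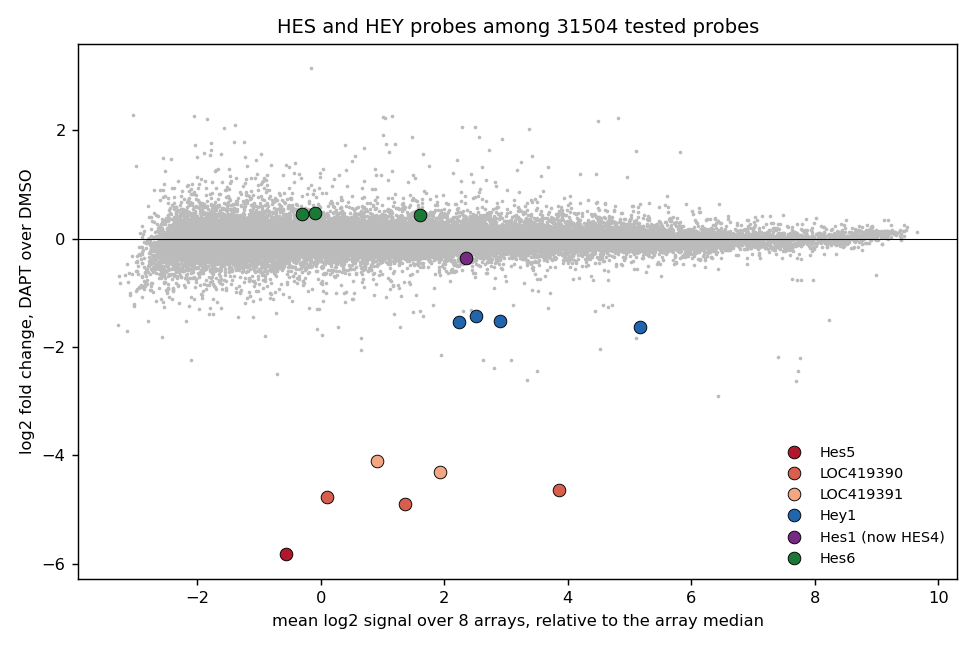
Log2 fold change, DAPT over DMSO (vertical axis), against mean log2 signal relative to the array median (horizontal axis) for 31504 tested probes, with HES and HEY probes in colour. The 6 probes of *Hes5*, LOC419390 and LOC419391 lie at -5.83 to -4.11, below every other probe, and the 4 *Hey1* probes at -1.63 to -1.43.

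*Hey1*, which encodes a Notch-responsive repressor of the HEY class, fell by less. The brightest probe with its symbol read 3.47, 3.40, 3.70 and 4.06 on the DMSO arrays (1 to 4 in order) and, in the same order, 2.15, 2.02, 2.10 and 2.26 with DAPT. The DAPT arrays were close together, the DMSO arrays of slide 2 were higher than those of slide 1, and the conditions were 1.14 apart. The means were 3.66 ± 0.30 and 2.13 ± 0.10 (SD, n = 4 each), so that the log2 fold change was -1.52 (0.19 SE, limma adjusted p = 0.0182), or 2.87-fold lower, with 34.8% of the DMSO signal left (interval 25.9% to 46.7%). The other probe with the symbol gave -1.53 (adjusted p = 0.0189).

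By accession, the brighter *Hey1* probe gave -1.63 (adjusted p = 0.0189). The dimmer gave -1.43 but an adjusted p of 0.305, with DAPT array 3 at 2.73 and the other DAPT arrays at 1.44 to 1.54. Its DAPT arrays still lay below its DMSO arrays. Blocking on slide brought its adjusted p to 0.0159, and blocking on array number to 0.00728. The *Hey1* call was sensitive to single arrays: without DMSO array 1 or 3 or any 1 of the DAPT arrays the brightest probe with the symbol had an adjusted p of 0.0547 to 0.0848, with log2 fold changes of -1.59 to -1.49. Without the filter on dim probes it was 0.0632.

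The probe annotated *Hes1*, whose gene is now named HES4, did not pass the test. No probe carries a gene that is now named HES1. The annotated probe read 2.36, 2.27, 2.61 and 2.90 on the DMSO arrays (1 to 4 in order) and, in the same order, 2.07, 2.05, 2.14 and 2.45 with DAPT. Every DAPT array was below the DMSO array of the same number, but the conditions overlapped through DAPT array 4. The means were 2.54 ± 0.28 and 2.18 ± 0.18 (SD, n = 4 each), a log2 fold change of -0.36 (interval -0.80 to 0.08, limma adjusted p = 1.0, exact permutation p = 0.0857). The interval runs from 57.6% to 106% of the DMSO signal, so a loss of the size seen in *Hey1* lay outside it. Blocking on slide gave an adjusted p of 0.751, and blocking on array number 0.509.

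*Hes6* did not pass the test either, and its log2 fold changes were above 0. Its brightest probe read 1.33, 1.24, 0.997 and 1.94 on the DMSO arrays (1 to 4 in order) and, in the same order, 1.67, 1.98, 1.20 and 2.45 with DAPT. Each DAPT array was above the DMSO array of the same number, while array 3 was the lowest and array 4 the highest in both conditions. The means were 1.38 ± 0.40 and 1.82 ± 0.53 (SD, n = 4 each), a log2 fold change of 0.44 (interval -0.21 to 1.1, limma adjusted p = 1.0, exact permutation p = 0.286). Its other 2 probes gave 0.47 and 0.46, with exact permutation p of 0.143 and 0.200. The interval, 86.2% to 215% of the DMSO signal, includes no change.

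**Figure D4:**
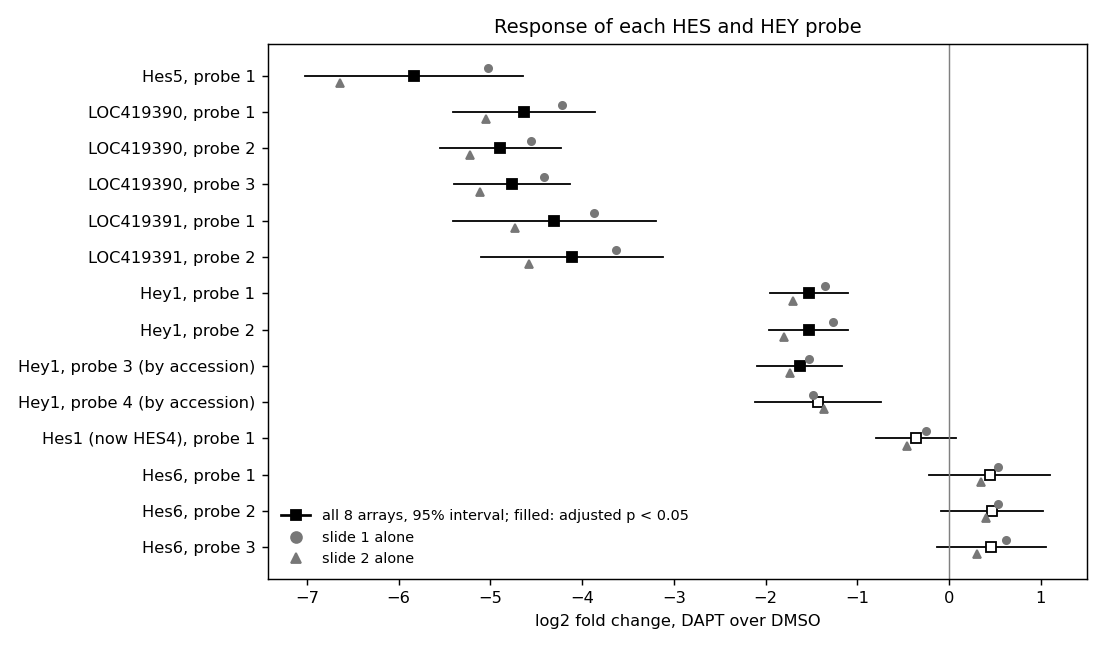
Log2 fold change, DAPT over DMSO (horizontal axis), for each HES and HEY probe, numbered by brightness within a gene, with the 95% confidence interval over 8 arrays. Squares are filled where the adjusted p is under 0.05, and grey symbols give slide 1 (circles) and slide 2 (triangles) alone. Values run from -5.83 for *Hes5* to 0.47 for *Hes6*, and no probe changes sign between slides.

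On each slide the 4 members that fell were lower with DAPT. The log2 fold change on slide 1 and slide 2 was -5.02 and -6.64 for *Hes5*, -4.22 and -5.05 for LOC419390, -3.87 and -4.73 for LOC419391, and -1.35 and -1.70 for *Hey1*. Slide 2 holds DAPT array 3, the lowest DAPT array at these probes of *Hes5* (-5.32), LOC419390 (0.64) and LOC419391 (-2.02). At the brightest probes the log2 fold change was larger in size on slide 2 for each of the 4 members. The dimmer *Hey1* probe by accession did not show this slide difference (-1.49 and -1.37). The test of that difference gave an unadjusted p of 0.0498 for *Hes5* (limma interaction term, adjusted p = 1.0) and at least 0.0905 for the other member probes, against 732 of 31498 probes with an unadjusted p under 0.05 (2.32%) and 0 with an adjusted p under 0.05 (limma). *Hes1* was at -0.26 and -0.46, and *Hes6* at 0.54 and 0.35.

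Whether members differed in response was tested on the log2 ratio of their brightest probes within each array, for all 15 pairs (exact two-sided permutation test, Benjamini-Hochberg adjustment over the 15). For 13 pairs the ratio shifted with DAPT with the conditions apart (exact permutation p = 0.0286, adjusted p = 0.0330). All of these but *Hes1* with *Hes6* hold a member that fell by itself, so much of this count follows from the tests above. The share of such pairs over all genes was not computed. *Hey1* lost less than LOC419390, by 3.11 on the log2 scale, and less than LOC419391, by 2.78. LOC419390 and LOC419391 differed by 0.33 with overlapping arrays (exact permutation p = 0.400). The ratios with *Hes5* rest on its dim DAPT signals, and its order against LOC419390 and LOC419391 turned under normexp with its offset of 50 units. No difference in response is therefore given between these genes and *Hes5*. Its ratio to LOC419390 was the other one that overlapped between conditions (exact permutation p = 0.0857, adjusted p = 0.0918).

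The pairs with *Hes1* and *Hes6* compare the responses of 2 genes, which their single tests did not. The ratio of *Hes1* to *Hey1* shifted by 1.16, with an SD over arrays of 0.03 in DMSO and 0.11 in DAPT. Over the DMSO arrays the 2 probes thus kept nearly the same ratio, and *Hes1* lost less than *Hey1*. The ratio of *Hes1* to *Hes6* shifted by -0.80 with the conditions apart (exact permutation p = 0.0286), although neither gene alone passed the test. Its Benjamini-Hochberg adjusted p of 0.0330 rests on the other pairs at the same smallest p. Those pairs each hold a member that fell by itself, so the adjustment gives this pair no support of its own. A shift in a ratio shows unequal change and does not say which of the genes changed.

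Genes whose values ran most like those of *Hes5* and *Hey1* were looked up among 10848 named genes, by Pearson correlation over the 8 arrays after subtracting the mean of each slide. The points form 2 clusters, so r largely restates the condition difference. For *Hes5* the highest were TOR1B (r = 0.99), PCGF5, FMOD, CDK6 and C5H11orf96, and the lowest LOC429451 (r = -0.99), ELAVL4, GADD45A, EBF2 and KALRN. For *Hey1* the highest were KCNH5 (r = 0.98), TOR1B, RAPGEF2, LOC418108 and RBPMS, and the lowest EBF2 (r = -0.996), ST18, KALRN, GADD45A and ELAVL4. TOR1B is near the top of both lists, and EBF2, KALRN, GADD45A and ELAVL4 are among the lowest in both. The *Hes5* and *Hey1* probes themselves correlated at r = 0.99 on these values, so shared genes follow from that. None of the shared genes passed the test between conditions (limma adjusted p of at least 0.0502).

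Around the members the pathway was compared by lists chosen with earlier results known, beside a median log2 fold change of -0.01 over all genes. Of 6 further HES and HEY relatives only *Heyl* had a probe, with a log2 fold change of -0.06 and overlapping conditions. Of 7 measured co-repressors that HES and HEY proteins recruit or may recruit, such as TLE proteins and SIRT1, none passed the test, at -0.18 to 0.57. None passed among 5 Notch receptors and ligands tested, 13 genes of the Notch transcription complex, 14 other targets and modulators, 6 gamma-secretase and ADAM genes, or 7 HLH partners including *Id1* to *Id4*. List genes were looked up by symbol, and *Nrarp*, a Notch pathway gene that the study reported as lower with DAPT, had no probe under its symbol. Among the tested genes of those lists the conditions were apart for *Dll1* and *Lfng*, as they were upwards for 172 of the 19047 (0.903%) and downwards for 184. *Dll1*, the ligand gene that proneural factors switch on, was at 1.18 (limma adjusted p = 0.467, or 0.0194 when blocked on slide, where 102 probes, 0.324%, rose). *Lfng*, which modifies Notch receptors, was at -0.56 (limma adjusted p = 1.0). *Mfng* was too dim for the filter and was not tested. Its conditions were also apart, with means of -4.16 with DMSO and -2.50 with DAPT.

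Proneural and neuronal bHLH genes, some of which HES proteins repress, included genes that rose. Of 10 tested, 3 rose, against 19 of all 19047 genes or accessions (0.0998%), none fell and the median log2 fold change was 0.46. The 3 were NEUROG1 (log2 fold change 3.15, limma adjusted p = 0.0178), NHLH2 (2.06, adjusted p = 0.00746) and NHLH1 (1.83, adjusted p = 0.0393).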

How the data were processed

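RNA of 4 pools per condition was hybridized to single-dye Agilent arrays. The authors deposited the image-analysis output of Agilent Feature Extraction 10.7.1.1 for each array, whose processed signals are intensity values corrected for background and not normalized between arrays. They also deposited an expression report with pooled mean raw intensity and mean log2 signal per condition, and log2 fold changes. Gene symbols and accessions were taken from it. Its pooled signals served only as a check against the arrays of their own condition (r = 1) and of the other condition (r = 0.994). No per-sample column was left unused (0). Array and slide numbers were read from the deposited array names.

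Computation used R 4.3.3, limma 3.58.1, and figures matplotlib 3.10.9. Outlier spots (13 to 44 per array) were left out, log2 signals of a probe's spots averaged, and the 50th percentile of each array subtracted, as in the study's methods. Probes well above background on all 4 arrays of a condition were tested with lmFit and eBayes, condition alone in the model. A gene is represented by its brightest probe with the symbol. The fit was tested on simulated data. Named are all members with their probes, list genes with an adjusted p under 0.05 or, failing that, up to 3 whose conditions did not overlap, and the 5 most and 5 least correlated genes. Members and lists were chosen with earlier results of these data known.

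Same-numbered arrays of DMSO and DAPT deviated together from their condition means across probes (r = 0.679, 0.569, 0.767 and 0.505), but so did other arrays of the same slide (0.419 to 0.675). Number and slide were therefore used as blocks in alternatives. P-values measure the spread between these 4 pools per condition. Arrays have no read depth, and their number limits the precision. Positions are not given, because the array design and the RefSeq table use different assemblies. Sequences were not used here, and some list genes are not reported here.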

Additional observations from a re-analysis of the deposited data

Results flagged for a closer look

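Within a condition, 4 of 28 sets of 4 arrays had 1 array far from the other 3 by Dixon's test. Chance flags about 1 in 20 independent sets, but many of these sets are probes of the same gene on the same arrays. The count therefore cannot be set against that rate. 3 of the 4 flagged sets came from DAPT array 3. At LOC419391 it read -2.02 at the brighter probe and -2.69 at the dimmer probe, where the other DAPT arrays lay at 0.28 to 0.46 and at -0.71 to -0.55. At the dimmer *Hey1* probe found by accession it read 2.73, above the other DAPT arrays at 1.44 to 1.54, while the remaining *Hey1* probes showed no such value. The last was DMSO array 3 at the brighter LOC419391 probe, which read 3.66 against 4.16 to 4.24 on the other DMSO arrays.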

How the results depend on the processing

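Over 20 alternatives no member log2 fold change turned its direction. *Hes5* (-6.64 to -2.75) and LOC419390 (-5.05 to -4.22) passed the test in all 20. LOC419391 passed in 18 and *Hey1* in 12, and *Hes1* (-0.75 to -0.18) and *Hes6* (0.08 to 0.65) in none. *Hey1* was at -1.52 (adjusted p = 0.0632) with no filter on dim probes and at -1.35 (adjusted p = 0.0914) on slide 1 alone. Leaving out 1 array gave -1.61 to -1.39 for *Hey1*, with adjusted p of 0.0353 to 0.0848, and -4.53 to -3.70 for LOC419391, with at most 0.0608. The number of members called was 2 to 4 when 1 array was left out, with 2 without DMSO array 1, where *Hey1* and LOC419391 were lost.

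Over all probes, 30 rose and 12 fell. With slide as a block these counts were 102 and 38, and with the array number as a replicate block, that is with paired arrays, 121 and 70. The replicate block changed no other member's call than that of the dimmer *Hey1* probe by accession. No filter gave 7 and 6, array weights 60 and 20, normexp 3 that rose, and slide 2 alone 20 that fell. Leaving out 1 array gave 5 to 20 that rose and 6 to 20 that fell. Without a filter, still 0 of the members' own probes differed in response between slides (limma interaction term, adjusted p under 0.05). Normexp on mean spot signals, planned, was not run, and median signals were used in its place, a choice made after seeing the data. Signals near background limit *Hes5* with DAPT.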
